A study of Homo sapiens with 3 samples.

Results

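Gene deserts are stretches of chromosome that hold no annotated gene, and the accessible sites described here are the ATAC peaks inside them. A peak was taken as a desert peak when all of it lay more than 100 kb from the extent of every gene, of any biotype, on chromosomes 1 to 22 and X in RefSeq's table for the assembly GRCh38.p14. By this rule 1021 of 106390 peaks on those chromosomes were desert peaks, a share of 0.960% (95% Wilson interval 0.903% to 1.02%), and the whole list held 106415 peaks. They came from 1 ATAC library, labelled replicate 2, of hCMEC/D3, human endothelial cells of brain microvessels that were immortalized and are grown as a line, here cultured on collagen until confluent. The series also holds 2 RNA libraries of the same line, which were not used here because their tables could not be linked to genes, and an ATAC replicate 1 was not analysed here. With 1 library and no second group, every value below is a description. No test was possible, and each interval covers counting error only.

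Gene deserts occur on most human chromosomes, and some of them lie beside genes of development or of the nervous system. Some deserts hold enhancers, short stretches bound by transcription factors that act on a gene at a distance, and the gene they act on need not be the nearest. ATAC-seq uses the transposase Tn5 to cut and tag open DNA, so an enhancer in use and other protein-bound open sites can appear as peaks. The longest gene-free interval of many chromosomes is the one around the centromere, where repeated sequence fills the space between the arms, and on several chromosomes it takes in the short arm.

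The peak list names no genome build, and its coordinates were therefore compared with the gene table by moving the peaks by 2 to 50 kb. On 23 of 23 chromosomes a larger share of peaks lay at ends of protein-coding genes without a move than with any of them. A gene end means here the first or last base of the gene with 1 kb on either side. Of 10 endothelial marker genes, 10 had a peak at an end, as did 3 of 4 mural, 4 of 4 neuronal, 1 of 3 astrocyte, 2 of 3 microglia and blood and 2 of 3 epithelial markers. Over all 19821 protein-coding genes the share was 73.5%. A peak at an end thus did not separate the endothelial list from the neuronal one. CDH1, the epithelial cadherin, AQP4, the astrocyte water channel, and AIF1, a microglial and macrophage marker, had no peak at an end.

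Sequences of the desert peaks are not shown, since their letters were not among the sources used here. Among the 5 desert peaks of highest fold enrichment, 2 lay nearest to genes of endothelial biology, and the 250 bases before the start of those genes are given so that the near and the distant accessible site can be set side by side. ADGRL4 encodes an adhesion receptor of endothelial cells, and VEGFC encodes a growth factor for lymphatic vessels. Both sequences are from RefSeq, build GRCh38.p14, on the minus strand, at chr1:79006731-79006980 and chr4:176792923-176793172, and capitals mark matches to the motifs searched.
ADGRL4: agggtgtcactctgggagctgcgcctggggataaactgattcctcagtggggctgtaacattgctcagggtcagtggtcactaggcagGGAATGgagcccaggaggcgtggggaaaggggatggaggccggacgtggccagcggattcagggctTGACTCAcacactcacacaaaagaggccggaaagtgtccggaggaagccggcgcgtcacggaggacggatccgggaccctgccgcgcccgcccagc
VEGFC: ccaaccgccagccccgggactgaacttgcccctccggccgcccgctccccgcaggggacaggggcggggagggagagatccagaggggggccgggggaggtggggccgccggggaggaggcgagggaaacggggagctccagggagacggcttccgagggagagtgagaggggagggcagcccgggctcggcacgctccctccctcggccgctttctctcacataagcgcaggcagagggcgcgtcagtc
The sequence before ADGRL4 held 1 match to the AP-1 motif TGANTCA, starting at position -96 from the gene start, and 1 to the TEAD motif GGAATG, starting at position -162. These letters, on either strand, occur in the same window of 6.55% and 11.9% of 27195 promoters. The sequence before VEGFC held neither, which says only that these letters are not in this window.

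Both genes had an accessible site at this start. The ADGRL4 peak, chr1:79006103-79007048, had 49.7 tags and a fold of 7.42, whereas the VEGFC peak, chr4:176791622-176793174, had 34.4 tags and a fold of 2.55. Pileup is the number of tags stacked over a peak, given for these broad peaks as a mean over the whole peak. Fold sets it against a local background of the same library, with 1 tag added to each, and both are the authors' values. The background in tags was worked out here from pileup and fold, and is therefore approximate. The desert peaks nearest to these genes are described with the other high peaks below. They were singled out after their values were seen.

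The number of desert peaks was small for the amount of desert sequence. Such sequence came to 290.2 Mb, 9.58% of the 3030 Mb covered, and it held 3.52 peaks per Mb (95% Poisson interval 3.31 to 3.74). This length counts stretches without known bases in the assembly, where no peak can be called. Their share of it was not measured. All other sequence held 38.5 peaks per Mb (38.2 to 38.7), a density 10.9-fold higher. Sequence between genes but within 100 kb of one held 27.1 peaks per Mb (26.8 to 27.4), and sequence inside genes 45.8 (45.4 to 46.1). These densities count 29075 and 76294 peaks, those at gene ends included.

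Desert peaks fell into 2 settings that had to be kept apart. The longest gene-free interval of each of the 23 chromosomes made up 166.6 Mb of the desert sequence and held 389 desert peaks, and 288 of these lay in the interval of chromosome 1. The remaining 933 intervals, called other intervals below, made up 123.5 Mb and held 632 peaks. Their density was 5.12 peaks per Mb (4.72 to 5.53), 7.52-fold below that of all sequence outside deserts. Without chromosome 1 the longest intervals held 0.696 peaks per Mb (0.567 to 0.846), against 13.4 (11.9 to 15.02) in the chromosome 1 interval.

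Peaks of the other intervals thinned out with distance from the nearest gene. By the middle of the peak, density was 49.3 per Mb within 10 kb of a gene, 27.5 from 10 to 25 kb, 18.2 from 25 to 50 kb and 10.7 from 50 to 100 kb. Beyond the desert limit it was 6.32 per Mb from 100 to 200 kb (561 peaks; 5.81 to 6.86) and 3.26 from 200 to 300 kb (67 peaks; 2.53 to 4.15). Only 9 peaks lay beyond 300 kb, in 14.2 Mb, or 0.634 per Mb (0.290 to 1.20). Up to 300 kb the fall was therefore gradual, with no step at the limit of 100 kb. Part of the 14.2 Mb beyond 300 kb lies in empty intervals described below. These share a stretch without protein-coding genes with a longest interval. With the longest intervals included, the sequence beyond 300 kb held 361 peaks and 2.09 per Mb.

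Median pileup did not thin out in the same way. It was 22.2 tags inside genes and 23.2 within 10 kb of one, then 18.6, 17.6 and 16.6 tags in the successive shells up to 100 kb. It was 17.0 tags from 100 to 200 kb, 15.7 from 200 to 300 kb and 13.9 for the 9 peaks beyond 300 kb. Within the other intervals, Spearman's rho of pileup and distance from the nearest gene was -0.04 over 632 peaks, all of 1 library. Over all 1021 desert peaks it was -0.39, a value that takes in the low peaks of chromosome 1.

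**Figure D1:**
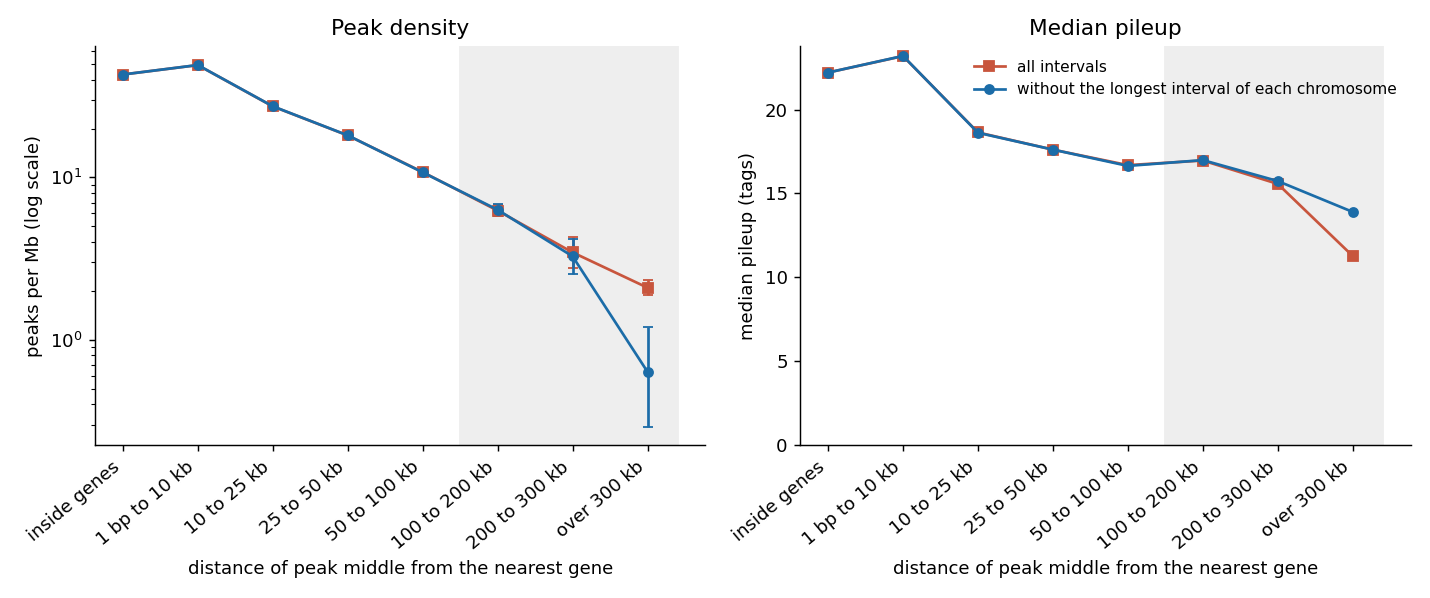
Peaks per Mb (left, log scale, bars are 95% Poisson intervals) and median pileup in tags (right) by distance of the peak middle from the nearest gene, with all intervals and without the longest of each chromosome; grey marks desert distances. Density falls from 49.3 to 0.634 per Mb in the set without the longest intervals, while median pileup falls from 23.2 to 13.9 tags.

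Pileups on either side of the limit overlapped. The 10 desert peaks just inside it, 100.1 to 100.6 kb from a gene, had pileups of 11.5 to 57.8 tags with a median of 27.9. The 10 peaks just outside it, 99.6 to 99.98 kb from a gene, had pileups of 9.65 to 66.4 tags with a median of 17.3.

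Most desert intervals held no peak at all. Of the 933 other intervals, 704 had none, and these made up 72.8% of their sequence. A single peak was called in 99 intervals and 2 to 4 peaks in 89. The 41 intervals with 5 or more peaks held 285, or 45.1%, of the 632. In the 229 intervals with a peak, a set chosen by having one, the density was 18.8 per Mb. That is nearer to the 27.1 between genes within 100 kb, which includes peaks at gene ends.

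Peaks per Mb fell with interval length, while longer intervals more often held a peak. Intervals with up to 50 kb of desert sequence held 13.1 peaks per Mb (10.7 to 15.9), those of 100 to 200 kb held 6.59 (5.71 to 7.57) and those over 400 kb held 1.67 (1.26 to 2.16). The sequence of a short interval lies nearer to genes by construction. The group over 400 kb includes empty intervals that share a stretch without protein-coding genes with a longest interval, as described below. The shortest group had 104 peaks in 343 intervals, and the longest 57 peaks in 50. The share of intervals with at least 1 peak was 18.1% in the shortest group, 34.6% from 200 to 400 kb and 28.0% over 400 kb. Median pileup stayed between 15.9 and 17.8 tags across these groups.

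**Figure D2:**
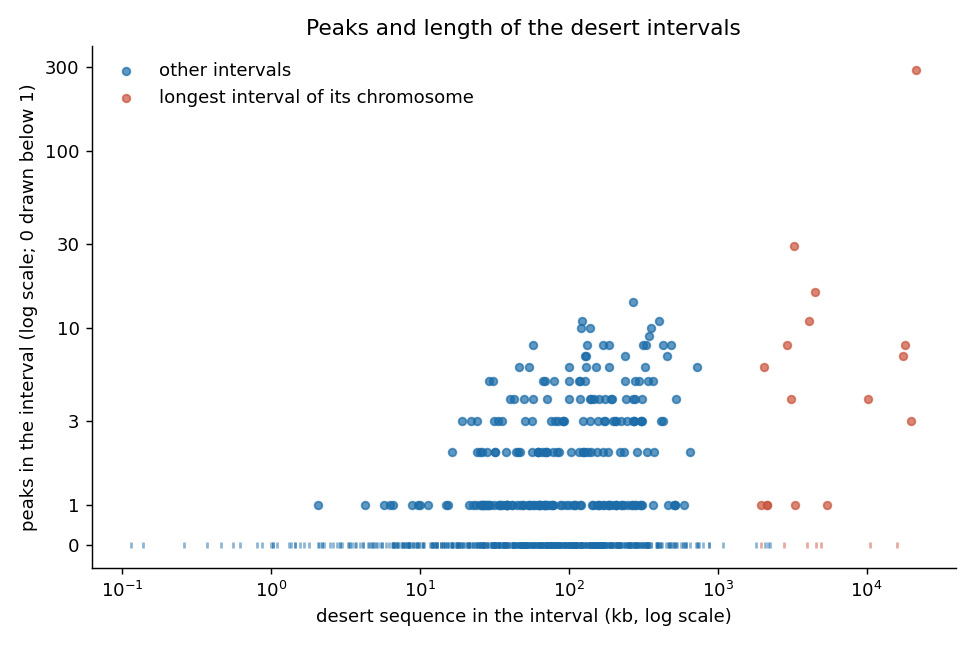
Number of peaks against desert sequence in kb for 956 desert intervals, both on log scales, with intervals without a peak drawn as ticks at 0. The chromosome 1 interval, with 288 peaks in 21528 kb, stands far above the rest, and the other intervals reach at most 14 peaks.

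The longest of the other intervals were empty. The 5 longest held 1.08 to 2.25 Mb of desert sequence each, on chromosomes 22, 21, 14, 7 and 4, and none had a peak. The first 4 border genes of families with many near copies, among them OR11H1 and OR11H12, olfactory receptors, POTED and ZNF716. Those of chromosomes 22, 14 and 7 lie on the same stretch without a protein-coding gene as the longest interval of their chromosome. The fifth lies between AGA, a lysosomal amidase gene, and TENM3, a neuronal adhesion gene, which are 4.01 Mb apart. Among the longest intervals of each chromosome, 7 of 23 also held no peak, the largest being on chromosome 14 with 15.9 Mb and chromosome 22 with 10.6 Mb. Stretches without known bases were not left out of these lengths.

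Density in the other intervals also differed between chromosomes. Among chromosomes with at least 10 such peaks, the highest values were 9.39 per Mb on chromosome 20 (14 peaks; 5.13 to 15.8), 9.12 on chromosome 6 (84 peaks; 7.28 to 11.3) and 8.80 on chromosome 8 (51 peaks; 6.55 to 11.6). Chromosome 16 followed with 7.45 (15 peaks) and chromosome 3 with 7.102 (63 peaks). Chromosome X, with the most such sequence at 12.52 Mb, held 32 peaks at 2.56 per Mb (1.75 to 3.61), the lowest of these. With under 10 peaks each, chromosomes 12, 11, 15, 17 and 21 held 1.09 to 2.33 per Mb. X was also the chromosome with the lowest density of all peaks, 18.7 per Mb. No peak was called in the other intervals of chromosome 22, where 2.53 Mb allow up to 1.46 per Mb, or of chromosome 19, where only 0.210 Mb are desert.

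Desert peaks were short and of low pileup, yet in the other intervals their fold was close to that of peaks elsewhere. There the median pileup was 16.9 tags (quartiles 12.6 and 25.1), against 19.1 between genes within 100 kb, 20.0 inside genes and 34.3 at gene ends. The median length was 359.5 bp (quartiles 273 and 570), against 393 bp, 407 bp and 787 bp. The median fold was 4.52, beside 4.53 between genes, 4.41 inside genes and 4.64 at gene ends. Only 12.8% of these desert peaks exceeded the upper quartile of pileup of all peaks, and 27.5% exceeded that of fold. Here, and for background, matched length and gaps below, peaks at gene ends were kept apart. That left 26446 peaks between genes within 100 kb and 55155 inside genes.

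The local background moved with these values. It cannot fall below 2.37 tags, a floor that the caller sets from the library size and the genome size, and 59.97% of desert peaks in the other intervals stood at that floor. The share at the floor was 44.0% between genes within 100 kb, 38.6% inside genes and 16.5% at gene ends. The part of the background in the fold values, and in which peaks were called, was not tested.

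Part of the lower pileup went with shorter length. Across the 632 peaks, Spearman's rho of length and pileup was 0.59. Among peaks under 300 bp the median pileup was 12.8 tags (12.3 to 13.3) in the other intervals and 13.2 between genes within 100 kb. For 300 bp to under 500 bp the values were 17.7 (17.0 to 18.9) and 19.5 tags, for 500 bp to under 800 bp 24.8 (21.6 to 28.7) and 26.2, and for 800 bp or more 32.6 (24.5 to 40.3) and 34.4. At matched length the desert values thus lay lower than those between genes within 100 kb by no more than 2 tags. In all groups except 300 bp to under 500 bp the interval of the desert median took in the value between genes. Medians inside genes and at gene ends were higher than the desert median in every group. For 800 bp or more they were 35.4 and 46.9 tags.

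**Figure D3:**
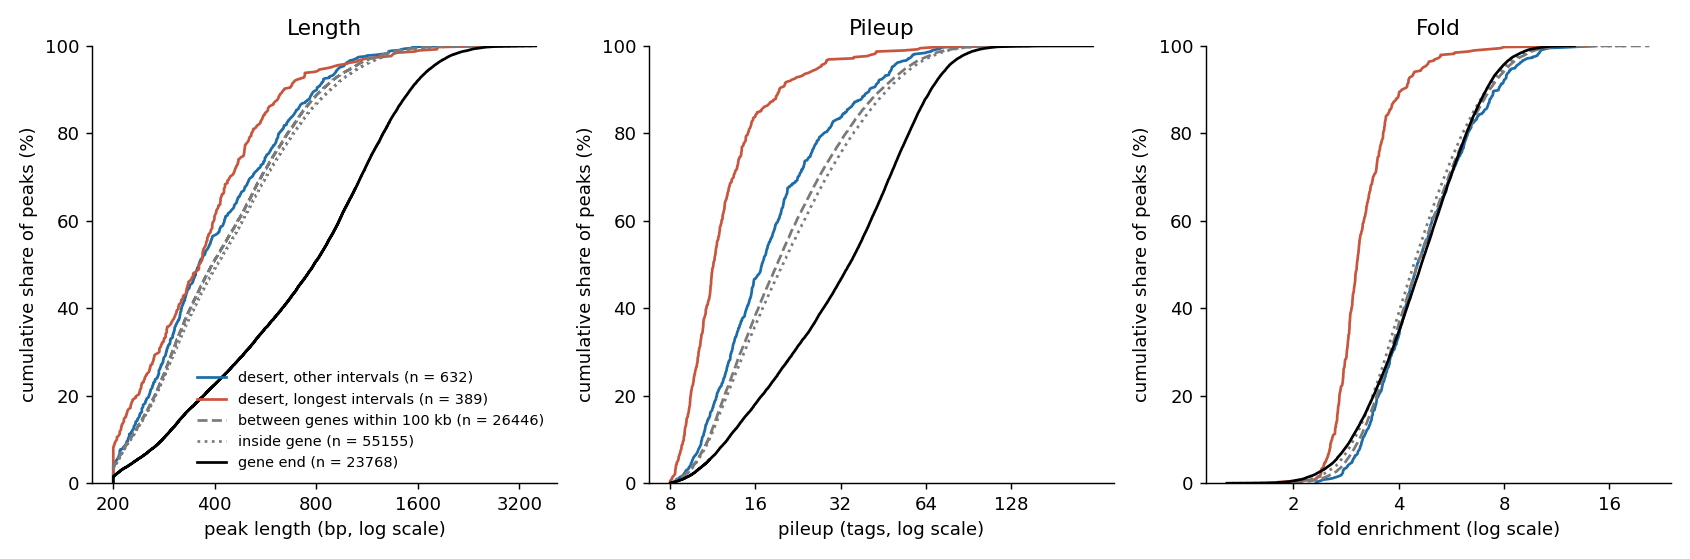
Cumulative share of peaks (%) by length in bp, pileup in tags and fold, all on log scales, for desert peaks of the other and of the longest intervals and for 3 classes of other peaks. The curve of the other intervals runs left of the non-desert classes for pileup and close to them for fold, and the longest intervals lie lowest in both.

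Peaks of the longest intervals were lower still. Their median pileup was 11.4 tags (quartiles 9.79 and 14.3) and their median fold 3.04, with a median length of 359 bp. Only 2.57% exceeded the upper quartile of pileup of all peaks. Without chromosome 1, peaks of the longest intervals had a median of 13.9 tags and a fold of 3.33, and 8.91% exceeded that quartile. Over all 1021 desert peaks together, the medians were 13.95 tags, a fold of 3.78 and 359 bp.

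The chromosome 1 interval had a structure of its own. Of its 288 peaks, 278 lay in one block, chr1:122503605-124784462, which spans 2.28 Mb and holds 121.9 peaks per Mb. Their pileups ran from 8.0 to 26.5 tags with a median of 11.2, and their median fold was 3.004. This block lies around the centromere of chromosome 1, as background, and its density exceeded that of sequence inside genes, while its median pileup was the lowest of the sets above.

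On either side of the block peaks were few. There were 4 peaks at chr1:121743178-121773675 and 2 close together at chr1:125178896-125182776, with pileups of 40.8 and 35.6 tags. The latter are the desert peaks farthest from any gene, at 3607 and 3610 kb. No peak was then called for 18.002 Mb, up to the last 4 peaks at chr1:143185064-143195272. The share of that stretch with known bases in the assembly was not measured. How reads that map to more than 1 place were handled is not given in the sources used here, and its part in this block was not tested.

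The other longest intervals with many peaks included those of chromosomes 10 and 17. Chromosome 10 had 29 peaks between the zinc finger genes ZNF37A and ZNF33B, with a median pileup of 13.8 tags. Chromosome 17 had 11 peaks between KCNJ18 and WSB1, with a median of 13.96 tags. The single peak of the chromosome 3 interval, chr3:93470289-93470889, had the highest pileup of any desert peak, 149 tags, and a fold of 14.3. It lies 402 kb from PROS1, which encodes the anticoagulant protein S, and 3988 kb from EPHA3, an ephrin receptor gene. No other peak was called in the 2.13 Mb of desert sequence of that interval. As for the chromosome 1 block, the part of reads that map to more than 1 place in this pileup was not tested.

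The median gap between desert peaks was longer than that between other peaks outside genes. In the other intervals the median gap to the next desert peak was 10.2 kb (8.01 to 13.1; 403 gaps), while the mean gap was 25.7 kb. Between genes within 100 kb the median gap was 5.72 kb (5.59 to 5.86) and the mean 14.7 kb. The share of gaps under 1 kb was alike, at 10.9% and 10.6%. In the chromosome 1 interval the median gap was 6.33 kb (5.56 to 7.14), and 79.8% of its gaps were short enough to join peaks into runs, as defined next.

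**Figure D4:**
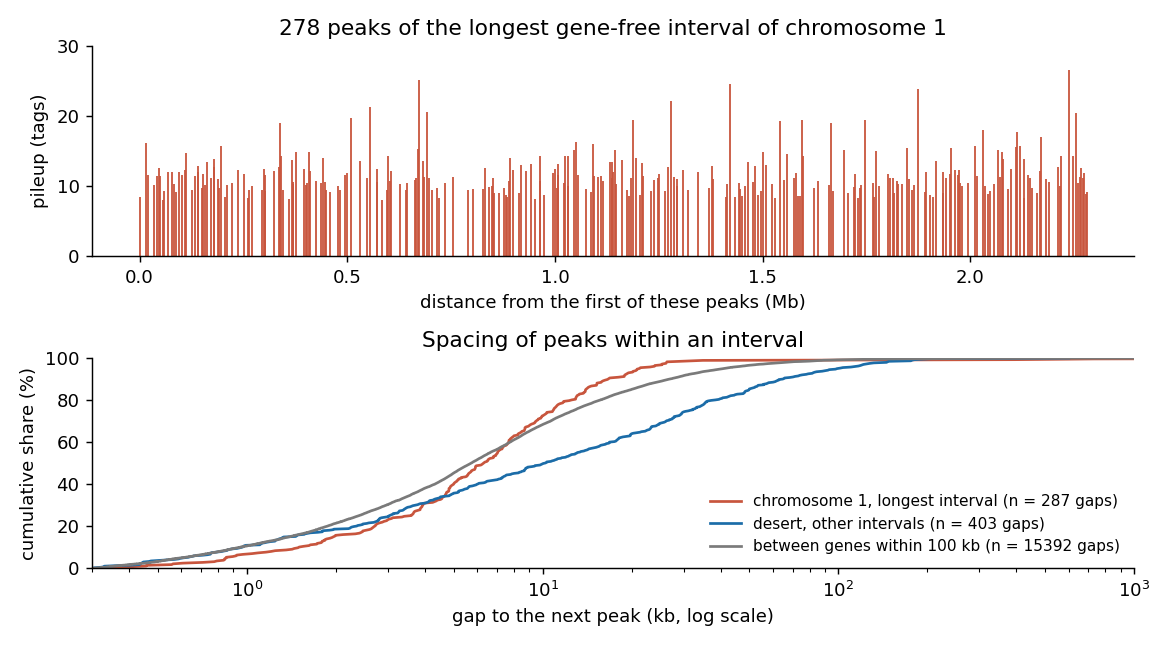
Top, pileup in tags of the 278 peaks of the dense block of chromosome 1 by distance in Mb from the first of them. Bottom, cumulative share (%) of gaps to the next peak of the same interval in kb (log scale): the other desert intervals, with a median of 10.2 kb, run to longer gaps than peaks between genes within 100 kb, with a median of 5.72 kb.

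Outside the longest intervals, desert peaks with close neighbours had a higher median pileup than lone ones. Peaks were joined into runs across short gaps, the widest of them 12.43 kb. In the other intervals 288 peaks stood alone, with a median pileup of 14.7 tags (13.7 to 15.6). The 154 peaks in pairs had a median of 18.6 tags (16.2 to 20.8), the 135 in runs of 3 or 4 a median of 19.8 (17.6 to 21.1) and the 55 in 9 runs of 5 or more a median of 25.2 (18.6 to 31.8). The intervals of lone peaks and of each group of runs did not overlap, but neighbouring group sizes among the runs did. These intervals count every peak of a run singly, although the 55 peaks come from only 9 runs. They therefore do not measure the spread between runs, and no difference was tested. With the longest intervals included the order did not hold: the 298 peaks in runs of 5 or more had a median of 12.1 tags (11.6 to 12.8), below the 13.75 (13.1 to 14.8) of 344 lone peaks. Outside the longest intervals, median fold differed little, from 4.15 in runs of 5 or more to 4.68 in runs of 3 or 4.

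The richest of the other intervals lay between SLC35B3, which encodes a nucleotide sugar transporter, and TFAP2A, the transcription factor AP-2 alpha of neural crest and skin. It held 14 peaks at chr6:9405415-9584172, 51.7 per Mb, in a gap of 1.96 Mb between both genes. Of these, 8 formed 1 run of 43.9 kb at chr6:9496930-9540858, with a median of 33.1 tags. The highest, chr6:9503072-9503908, had 73.2 tags and a fold of 9.17, and 3 others of the run had 50.5, 54.9 and 41.0 tags at chr6:9516139-9516568, chr6:9520386-9521302 and chr6:9523547-9523842. The 6 peaks outside the run had 8.98 to 48.5 tags, and 5 of the 6 highest values of the interval lay in the run. A peak of 39.4 tags lay at an end of SLC35B3 and none at an end of TFAP2A, which was the nearer gene for 13 of the 14 peaks at 813 to 958 kb.

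Next came 2 intervals of 11 peaks each. Between ANKRD50, a gene of endosome recycling, and FAT4, an atypical cadherin, peaks lay at chr4:124903938-125199260. A run of 5 peaks there included chr4:124940305-124940782 with 78.0 tags and chr4:124942948-124943777 with 50.8 tags, and the 6 peaks outside it had 9.77 to 20.8 tags. The end peaks of ANKRD50 and FAT4 had 54.1 and 64.04 tags. The highest of the 11 desert peaks, 478 bp long, stood above both end peaks in mean pileup. Its fold of 6.50 was above their 3.65 and 3.51. The end peaks, chr4:124711516-124713634 and chr4:125314651-125317024, are much longer, so these means cover unlike lengths. No comparison at matched length was made.

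Between PRKD1, which encodes protein kinase D1, and G2E3, a ubiquitin ligase, the 11 peaks stood closer, at chr14:30193731-30271179 and 90.0 per Mb. All 11 had pileups of 14.2 to 49.4 tags, and 7 exceeded the median of all peaks in the list. The highest, chr14:30223303-30224270, lay in a run of 6 peaks within 17.5 kb. Here the end peaks of PRKD1 and G2E3 had 28.1 and 33.9 tags, below 5 and 4 of the desert peaks respectively. Both end peaks are longer than any of the 11 desert peaks, whose lengths reach 968 bp.

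In 3 intervals there were 10 peaks each. Between HMHB1, a minor histocompatibility antigen gene, and YIPF5, a gene of transport between endoplasmic reticulum and Golgi, they lay at chr5:143921408-144029085, 83.2 per Mb, with up to 48.0 tags. Between HDGFL1 and NRSN1, the latter a neuronal membrane protein gene, they lay at chr6:22826939-22955232 with up to 72.4 tags. Between SLC10A2, the ileal bile acid transporter, and DAOA they lay at chr13:104310953-104572009 with up to 48.0 tags. Of these 6 genes only YIPF5 had a peak at an end, of 60.6 tags. In all 3 intervals the pileup ran from about the lowest called, 8.62 to 9.93 tags, to the high values given.

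Further intervals show how compact such groups can be. On chromosome 16, 9 peaks at chr16:34572586-34595817 formed the run of most peaks outside the longest intervals, within 23.2 kb, with a median of 16.7 tags and a fold of 3.38. It lies on the same gap of 12.2 Mb between protein-coding genes as the longest interval of that chromosome, and its fold was nearer to that of the longest intervals than to the median of 4.52. On chromosome 6, 8 peaks at chr6:140319284-140436756 lay 945 kb from CITED2, a co-regulator of transcription that binds p300, with a median of 22.4 tags and a highest of 66.9.

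**Figure D5:**
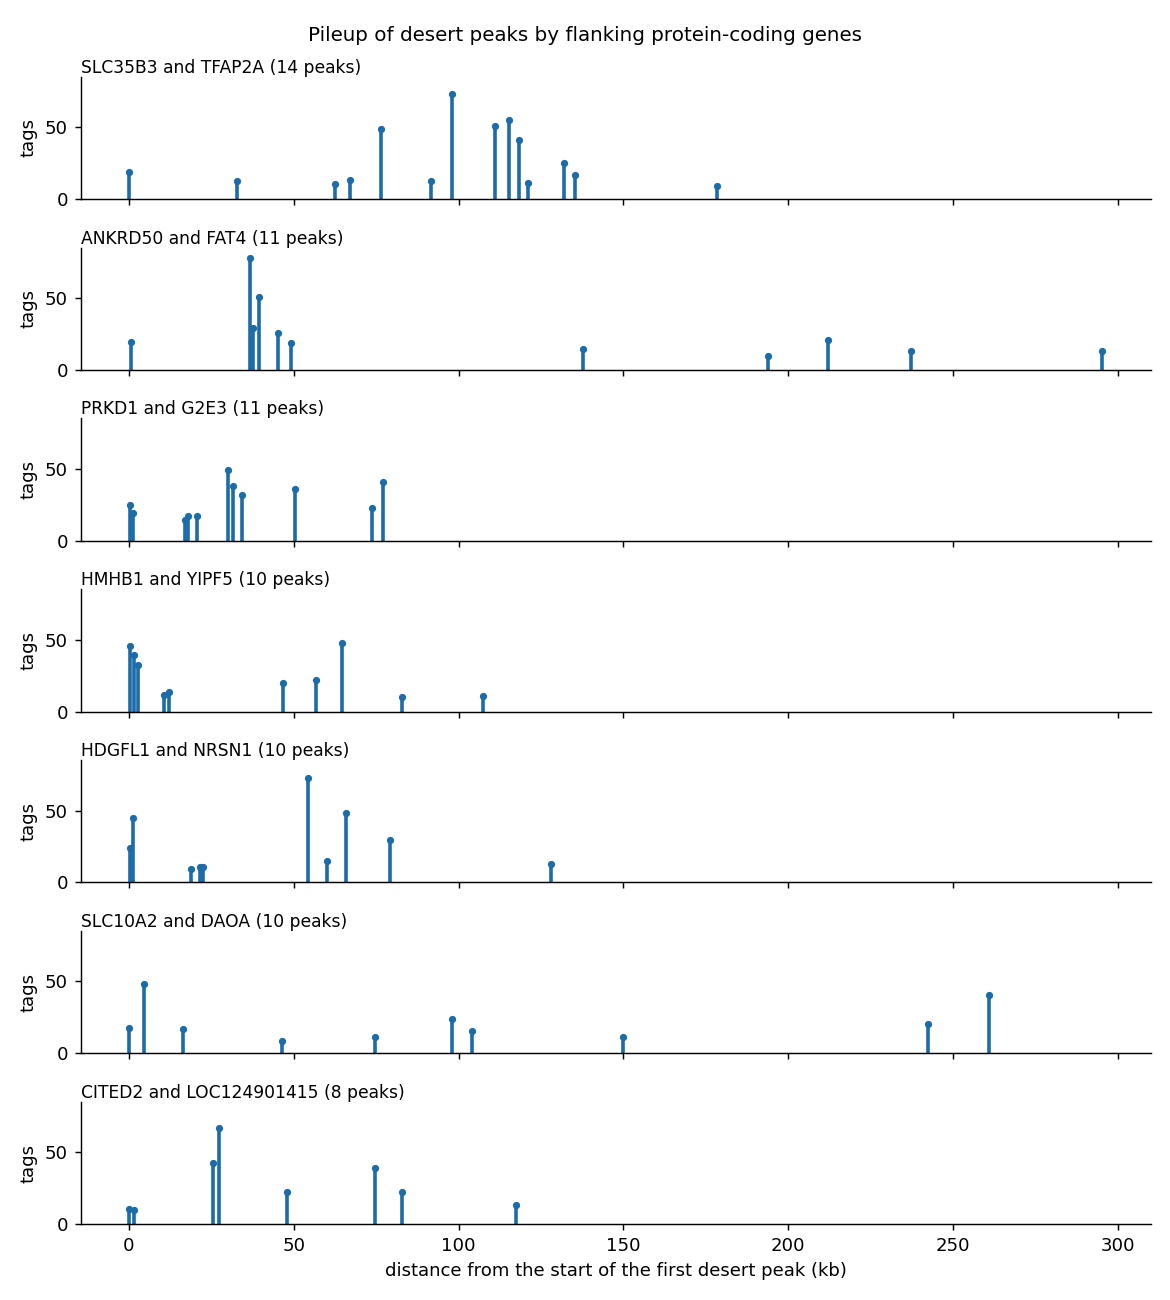
Pileup in tags of each desert peak in 7 intervals, named by the protein-coding genes on either side, against distance in kb from the first desert peak of the interval. The highest peak of each interval has 48.0 to 78.0 tags. The others range from 8.62 tags, between SLC10A2 and DAOA, to 54.9 tags, between SLC35B3 and TFAP2A.

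High pileup and high fold picked out different desert peaks. Of the 10 with the highest pileup, 8 lay in the other intervals, with 67.0 to 102 tags and folds of 6.13 to 10.4. The highest of these was chr16:86951720-86953029, 1310 bp and 102 tags, between FOXL1, a forkhead factor gene 368 kb away, and C16orf95. The 4 other desert peaks of that interval, which holds 29.2 kb of desert sequence, had 57.8, 57.2, 28.9 and 43.6 tags. That gave the interval a median of 57.2 tags, against 16.9 over the 632 peaks.

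Another of the 10 was chr4:156476227-156476835, with 68.2 tags and a fold of 10.4. It lay 284 kb from PDGFC, a growth factor gene for mesenchymal cells, and 522 kb from CTSO, a cathepsin gene. The end peak of PDGFC had 72.1 tags, close in pileup, with a fold of 3.88. The peak chr2:133817826-133818742, with 71.8 tags, lay 142.99 kb from NCKAP5 and 301 kb from MGAT5, an N-glycan branching enzyme gene whose end peak had 75.7 tags.

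Of the 5 desert peaks with the highest fold, only the chromosome 3 peak of 149 tags was also among the 10 of highest pileup. The highest fold, 14.4, belonged to chr7:145997245-145997520, a peak of 276 bp and 47.5 tags, 119 kb from CNTNAP2, a neuronal adhesion gene without a peak at an end. Then followed chr4:176988147-176988652, with a fold of 13.1 and 55.6 tags, 195 kb from VEGFC and 321 kb from NEIL3, a DNA repair gene. Its pileup, a mean over 506 bp, was above the 34.4 tags at the start of VEGFC shown above, a mean over a longer peak. The peak chr18:29840144-29840469, with a fold of 10.8 and 35.3 tags, lay 1149 kb from DSC3, a desmosomal cadherin, and 1663 kb from CDH2, which encodes N-cadherin. The local backgrounds of these 3 peaks were 2.37, 3.32 and 2.37 tags. The first and last stood at the floor, while that of the peak nearest to VEGFC was close to the median of all peaks, 3.32.

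The VEGFC peak was 1 of 6 desert peaks between VEGFC and NEIL3, at chr4:176988147-177051802. Of these, 4 formed a run with 55.6, 15.4, 41.8 and 10.5 tags, and 2 stood apart with 22.9 and 18.7 tags. High and low peaks alternated within the run.

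The peak chr1:79811116-79811617, with a fold of 12.1 and 45.0 tags, lay 804 kb from ADGRL4. It was the highest of 5 desert peaks in its interval, at chr1:79716539-79900532, whose other pileups were 23.5, 15.6, 31.0 and 19.3 tags. A second interval between ADGRL4 and ADGRL2 held 2 low peaks of 13.1 and 9.79 tags. All 5 peaks of the first interval were single, with none in a run, unlike those beside VEGFC. The end peak of ADGRL4, 49.7 tags, was within 5 tags of the highest of them.

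The longest and the most remote desert peaks ranged widely in fold. The longest was chr4:49709236-49711962, 2727 bp with 53.7 tags and a fold of 3.51, in the longest interval of chromosome 4. Outside the longest intervals the longest was chr6:51028024-51030004, 1981 bp with 36.6 tags, 180 kb from TFAP2B, which encodes transcription factor AP-2 beta, and 585 kb from PKHD1, the gene of fibrocystin. The most remote peak of the other intervals, chr7:85882439-85882669, had only 9.69 tags and lay 334 kb from any gene, between SEMA3D, a semaphorin gene, and GRM3, a glutamate receptor gene. By contrast, chr4:166422509-166422916 had 26.9 tags and a fold of 8.27 at 310 kb from any gene, between TLL1, a metalloprotease gene, and SPOCK3, a proteoglycan gene. Likewise chr3:161854254-161855056 had 33.8 tags and a fold of 6.69 at 307 kb. It was 1 of 7 peaks with 10.7 to 49.7 tags in an interval between OTOL1, which encodes an inner ear collagen, and SI, the sucrase-isomaltase gene.

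Protein-coding genes were farther off than genes of any kind. For peaks of the other intervals the nearest gene of any biotype lay at a median of 129 kb and the nearest protein-coding gene at a median of 256 kb (quartiles 148 and 432 kb). That distance exceeded 500 kb for 136 peaks (21.5%) and 1000 kb for 26 (4.11%). The protein-coding genes on both sides of a peak were a median of 1027 kb apart, over 629 peaks with a gene on either side. Among the genes nearest to the most desert peaks were LINC02798, listed as protein-coding, with the 284 chromosome 1 peaks on its side, ZNF33B with 22 and EMB with 16. LOC124903767 and TFAP2A had 13 each, OTOL1 had 11, DAOA and HDGFL1 had 10 each, and SPANXN1 and WSB1 had 9 each.

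In all, 403 protein-coding genes stood beside a desert interval with a peak. A peak at an end was found for 269 of them, 66.7% (62.0% to 71.2%), against 73.5% (72.9% to 74.1%) of all 19821 protein-coding genes. Beside other intervals alone it was 68.1% (63.2% to 72.6%) of 376 genes where the interval had a peak and 52.8% (48.9% to 56.6%) of 644 genes where it had none. These 2 intervals did not overlap. No test was made, and 1 gene can border several intervals. The 644 genes border no desert interval with a peak, and a gene beside both kinds was counted only with the 403. The same 644 are meant below by genes beside other intervals without a peak. Beside intervals with at least 5 peaks, longest intervals included, the share was 56.8% (46.8% to 66.3%) of 95 genes. It was thus not higher than the 66.7% beside all intervals with a peak, which also include the longest. For other intervals alone this share was not worked out.

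Transcription factor and neural adhesion families were present among these neighbours in small numbers. SOX factors, which set cell fate, gave 4 of the 403 genes (0.993%), SOX2, SOX4, SOX11 and SOX14, against 19 (0.0959%) of all protein-coding genes and 3 (0.466%) of the 644 beside other intervals without a peak. Cadherins and protocadherins, adhesion proteins, gave 5 (1.24%), CDH2, CDH19, CDH20, PCDH9 and PCDH10, but 18 (2.80%) beside other intervals without a peak. Over all protein-coding genes the cadherin share was 0.444%. Ionotropic glutamate receptors gave 4 (0.993%), GRIA1, GRIA2, GRID1 and GRIK2, against 5 (0.776%) without a peak and 0.0959% of all genes. SLITRK genes, neuronal membrane proteins, counted with the SLIT genes, gave 3 (0.744%), against 0.0454% of all genes, and contactins and their relatives gave 3, against 0.0656%. These counts are small, and the differences were not tested.

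Olfactory receptors gave 0 of the 403 genes, although they make up 389 of all protein-coding genes (1.96%), and they gave 4 beside other intervals without a peak. Zinc finger genes named ZNF gave 8 (1.99%), against 517 (2.61%) of all protein-coding genes, and of the 8 ZNF33B, ZNF37A, ZNF254, ZNF337 and ZNF716 border longest intervals. Of a list of 34 endothelial markers and regulators, such as CDH5, KDR, TEK and ERG, 0 bordered a desert interval with a peak and 4 bordered other intervals without one. Of all 19821 protein-coding genes, only 403 bordered the first kind and 644 the second. With shares this low, a list of 34 genes is too short to show a difference, and none was tested. ADGRL4 and VEGFC, which did border a desert interval with a peak, are not on that list. Which genes the desert peaks act on was not measured.

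The range among SOX neighbours was wide. SOX11 bordered 2 intervals with peaks, at chr2:4258624-4354925 with 3 peaks of 19.7 to 23.9 tags and at chr2:5077401-5169427 with 7 peaks of 10.7 to 35.2 tags. On its other side an interval of 112 kb of desert sequence held 0 peaks. Beside SOX2, the stem cell factor gene, there was 1 peak, chr3:182324019-182324258, of 9.08 tags, 610 kb away. Both were chosen after their values were seen.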

How the data were processed

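Accessible sites were measured in 1 ATAC library of hCMEC/D3. The authors called broad peaks with MACS 2.2.7.1 without a control, per the file headers, in single-end mode, with a shift of -100 and an extension of 200 bp, with q limits of 0.05 (strong) and 0.1 (broad). Of 31532245 tags, 22188172 were kept, and the effective genome size was 1870000000, the mouse preset. This size sets the background floor, and so the fold, p-value and q-value of peaks at it. Bowtie2 and the builds GRCh38 and mm10 are named without roles, per the submitters' processing notes. The deposited list gives the pileup signal in tags, the fold as a ratio, −log10 p-value and q-value, and the length of each peak. The 2 RNA tables were not used.

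Peaks were placed against 58419 genes, 19821 of them protein-coding. From the table, 679 rows whose positions restart, as on scaffolds under a chromosome's name, were left out. The bounds of a chromosome were taken as the last gene or peak. Desert sequence is what lies over 100 kb from every gene, and a desert interval is 1 unbroken piece of it. Shares carry Wilson intervals, densities exact Poisson intervals and medians exact binomial intervals, all at 95% (python 3.11.15, scipy 1.17.1). Placement and gaps were tested on simulated data. Peak sequence features, which need a genome, were not analysed. The members, gene lists and tests were chosen with earlier results of these data known. Named regions are the 10 intervals with the most peaks, the 5 densest with at least 10 peaks, the 5 longest with and without peaks, the peaks ranked first by pileup (10), fold, length and distance (5 each), the 5 longest runs and the 10 genes nearest to the most peaks. The same ranks within the other intervals, and VEGFC, ADGRL4, SOX11, SOX2, PDGFC and CITED2, were added after the values were seen. Some regions and genes that meet this rule are not reported here.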

Additional observations from a re-analysis of the deposited data

How the results depend on the processing

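Of 69 alternatives to 7 results, 22 stayed near the reported value (within 1.5 times for a count, otherwise within its 95% interval) and 47 moved; what caused the moves was not tested. No paired analysis was possible because no result comes from a test and the ATAC group has 1 library. Leaving out assembly gaps was not run, since it needs a genome. Counted once each, 245 intervals held a peak. Leaving out longest intervals of every chromosome or of chromosome 1, for results other than the first of these for density, and keeping every row of the gene table were chosen after seeing the data.

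The 1021 desert peaks became 2850 beyond 50 kb, 446 beyond 200 kb, 337 beyond 500 kb, 10051 from protein-coding genes only, 1777 without pseudogenes, 466 with −log10 q from 5 upward, 464 with a fold from 4 upward and 632 without the longest intervals. The density outside deserts over that inside was above 1 in 12 of 12 alternatives. In the same order, with the last for longest intervals, it was 6.51, 16.5, 17.1, 4.42, 8.82, 17.2, 15.1 and 7.52, and it was 8.43 without chromosome ends and 14.1 without the longest interval of chromosome 1, against 10.9. Median length moved to 388 bp (protein-coding), 463 bp (q) and 427.5 bp (fold filter). Median pileup, 13.95 tags, was in the first order 15.7, 11.8, 11.2, 17.3, 15.1, 20.7, 19.75 and 16.9 tags, and 16.5 tags without the chromosome 1 interval. Median fold, 3.78, was likewise 4.303, 3.15, 3.04, 4.497, 4.12, 5.29, 5.30 and 4.52, and 4.32 without that interval. The median gap, 7.79 kb, was 6.83 kb beyond 500 kb, 10.7 kb for protein-coding genes, 8.77 kb without pseudogenes, 14.5 kb (q), 19.5 kb (fold filter), 8.99 kb with peaks under 1 kb apart joined, 10.2 kb without the longest intervals and 10.7 kb without that of chromosome 1.

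A desert without a peak was not shown to be closed: the lowest pileup called in deserts was 8.0 tags.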
